A study of Mus musculus with 8 samples.

Results

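The proteasome genes described here are 44 of the 22180 genes that the arrays measured with probe sets of a single gene symbol. They were chosen by name, as symbols that start with Psma, Psmb, Psmc, Psmd or Psme and go on with a digit, pseudogenes left out, and for each symbol the probe set with the highest mean over the 8 arrays was used. Of the 44, 18 encode subunits of the 20S core, 17 encode subunits of the 19S regulator, 3 encode chaperones that help to assemble the 19S regulator, and 4 encode other activators. The name pattern also took in Psmc3ip and Psme3ip1, whose proteins are named for binding a proteasome protein and are not subunits. Psma4, a further 20S subunit, was found only on probe sets that carry 2 symbols and is not among the 44.

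The samples were CD4+ T cells from a transfer model of colitis, in mice of the C57BL/6 strain. The first group, Irak1-/-, lacks the kinase IRAK1, which relays signals of Toll-like and IL-1 family receptors, and carries the CD45.2 allele. The other, wt, carries CD45.1. CD4+CD62L+ cells of both kinds went in equal number into the same Rag1-/- hosts, which make no T or B cells of their own, and 14 days later CD3+CD4+ cells of each kind were sorted from mesenteric lymph nodes, at a stated purity above 99.5%. Each of 4 experiments pooled 2 hosts and gave 1 Irak1-/- array and 1 wt array, called a pair here. The sources used here give neither the age of the mice nor the deleted part of Irak1. Effects of the genotype and of the CD45 allele or its flanking DNA cannot be told apart. Affymetrix arrays gave levels on the log2 scale, so a difference of 1 is a doubling, and the 4 arrays per group limit the precision of every value.

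The 26S proteasome is the protease that degrades proteins tagged with ubiquitin. Its 20S core is a barrel of alpha and beta subunits whose proteolytic sites belong to Psmb6, Psmb7 and Psmb5, and its 19S caps bind, unfold and feed in the tagged protein. Interferon-gamma and other inflammatory signals replace these catalytic subunits by Psmb9, Psmb10 and Psmb8, which gives the immunoproteasome, and raise Psme1 and Psme2, which form the PA28 activator. Lymphocytes hold much immunoproteasome even at rest, and it serves both the supply of peptides to MHC class I and the protein turnover of activated T cells.

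Before the member results, a few facts of the arrays bear on them. The Irak1-/- array of pair 3 stood apart, with correlations to the other arrays of 0.957 to 0.970 over the genes tested, where the highest correlation of every other array was between 0.983 and 0.986. T cell markers were at mean levels of 8.17 to 11.24 in Irak1-/- arrays and 8.15 to 11.28 in wt arrays over the 9 measured here, among them Cd3e and Cd4. Of 14 myeloid markers, 13 passed the level filter, and 12 of these had positive differences and 1 a negative one. Their median was 0.42, and they ran from -0.59 to 4.16, the largest difference of all genes tested. By limma 3 were higher past the adjusted threshold (Lyz2, Tyrobp and Fcer1g), where 0.0676% of all genes tested were. At an unadjusted p under 0.05, 7 were higher and 1 lower, where 2.88% and 3.82% of all genes were. Groups without overlap, higher in Irak1-/-, were found for 6, where 1.17% of all genes had them. The mean log2 level of the 14 ran from 5.58 to 5.96 in Irak1-/- arrays and from 4.78 to 4.96 in wt arrays. Myeloid cells express proteasome genes too, and the part of this RNA in the values below was not tested. Irak1 itself, which cannot check the deletion here since the position of its probes against the deleted part is unknown, read 6.84 ± 0.167 in Irak1-/- and 6.77 ± 0.332 in wt arrays (SD, n = 4 each).

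Upstream sequences are shown for the catalytic subunits that replace one another and for Psme2, because the results turn on these members and interferon-induced transcription drives the exchange. RefSeq promoter windows on GRCm38.p6 matched 37 of the 44 genes with 41 windows, since 4 genes had more than 1 start; Psma8, Psmb1, Psmb2, Psmb7, Psmc3, Psmd3 and Psmd7 were not matched or not used. Each sequence holds the 250 bases before the annotated start, 5′ to 3′ on the strand of the gene. The windows are Psmb9 at chr17:34187331-34187580 (minus strand), Psmb8 at chr17:34197945-34198194 (plus), Psmb10 at chr8:105938393-105938642 (minus), Psmb6 at chr11:70525107-70525356 (plus), Psmb5 at chr14:54617996-54618245 (minus) and, for the upstream of its 2 starts, Psme2 at chr14:55591102-55591351 (minus). Capitals mark letters that match 1 of 4 motifs searched on both strands, namely GAAA and GAAA with 2 bases between them (interferon regulatory factors), TTCNNNGAA (STAT factors), TGANNNNGC (the NFE2 family) and GGGA and CC with 4 bases between them (NF-kappaB).
Psmb9: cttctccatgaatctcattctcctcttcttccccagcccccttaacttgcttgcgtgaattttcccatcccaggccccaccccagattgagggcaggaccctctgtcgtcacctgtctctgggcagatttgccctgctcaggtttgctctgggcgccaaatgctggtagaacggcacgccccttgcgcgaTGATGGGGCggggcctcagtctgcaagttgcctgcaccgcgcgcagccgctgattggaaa
Psmb8: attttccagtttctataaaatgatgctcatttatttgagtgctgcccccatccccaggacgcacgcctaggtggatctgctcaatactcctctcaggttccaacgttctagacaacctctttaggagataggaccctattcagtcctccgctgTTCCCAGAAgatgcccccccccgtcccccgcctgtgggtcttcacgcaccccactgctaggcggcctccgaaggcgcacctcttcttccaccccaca
Psmb10: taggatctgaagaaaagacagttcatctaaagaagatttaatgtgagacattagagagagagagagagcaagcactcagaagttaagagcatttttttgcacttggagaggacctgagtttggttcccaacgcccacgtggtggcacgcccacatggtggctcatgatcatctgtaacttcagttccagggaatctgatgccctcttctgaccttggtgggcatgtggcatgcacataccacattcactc
Psmb6: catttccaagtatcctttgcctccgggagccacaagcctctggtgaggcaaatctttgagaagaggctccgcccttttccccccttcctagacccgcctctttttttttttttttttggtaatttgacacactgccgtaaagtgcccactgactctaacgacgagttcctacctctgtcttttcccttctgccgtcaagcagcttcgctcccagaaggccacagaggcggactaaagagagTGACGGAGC
Psmb5: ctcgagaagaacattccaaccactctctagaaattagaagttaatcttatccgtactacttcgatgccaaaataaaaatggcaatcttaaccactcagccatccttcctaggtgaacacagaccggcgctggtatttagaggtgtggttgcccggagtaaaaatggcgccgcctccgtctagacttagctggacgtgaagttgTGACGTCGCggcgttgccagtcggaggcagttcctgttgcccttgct
Psme2: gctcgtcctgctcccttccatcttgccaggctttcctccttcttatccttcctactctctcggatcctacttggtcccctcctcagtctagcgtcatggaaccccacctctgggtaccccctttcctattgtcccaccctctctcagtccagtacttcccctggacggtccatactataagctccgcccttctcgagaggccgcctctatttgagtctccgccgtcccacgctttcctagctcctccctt

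In these windows the STAT-type letters stood once, in Psmb8, with their first base 97 bases before the start. That motif was in 1 of 41 member windows, against 7.02% of all 32851 windows. NFE2-type letters began 60 bases before the start of Psmb9, 9 before that of Psmb6 and 47 before that of Psmb5, and 67 before the other start of Psme2. They were in 16 of the 41 member windows (39.0%), against 35.2% of all windows, so these letters are common in promoters at large. Interferon factor letters were in the windows of Psmb3, Psmd4 and Psmd9, against 2.98% of all windows, and NF-kappaB-type letters in 10 member windows (24.4%), against 17.6% of all. Each sequence shown holds at most 1 match, and those of Psmb10 and Psme2 hold none. On chromosome 17 the RefSeq gene order is Psmb9, Tap1, Psmb8, Tap2, inside the MHC, and on chromosome 14 a single gene lies between Psme1 and Psme2.

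Whether proteasome genes differ between Irak1-/- and wt cells of the same hosts was tested with limma on the whole table of 13308 genes past a level filter, with the pair as a block. No member passed at an adjusted p under 0.05, where 0.0751% of all genes did, 0.0676% higher and 0.00751% lower in Irak1-/- cells. At an unadjusted p under 0.05 there was 1 member, Psme2, lower in Irak1-/- cells, where 6.7% of all genes reached it, 2.88% higher and 3.82% lower. The 41 members past the filter had log2 differences between -0.46 and 0.14, with a median of -0.0028, beside a median of -0.03 over all genes tested. Of these members 19 had positive and 22 negative differences, while 41.9% of all genes tested had positive and 58.1% negative ones. In pooled cells like these, fewer cells that express a gene and less RNA per cell cannot be told apart.

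The fits also bounded what could have been missed. The standard error of a member's difference ran from 0.102 to 0.194, with a median of 0.117. For 38 of 41 members the 95% confidence interval lay between -0.5 and 0.5 on the log2 scale, a span of 1.41-fold each way, as it did for 77.5% of all genes tested. The other 3 were Psme2, Psmb10 and Psmb6, and all 3 read lowest on the Irak1-/- array of pair 3. Differences were under 0.1 in size for 28 of the 41 members and for 51.6% of all genes.

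**Figure D1:**
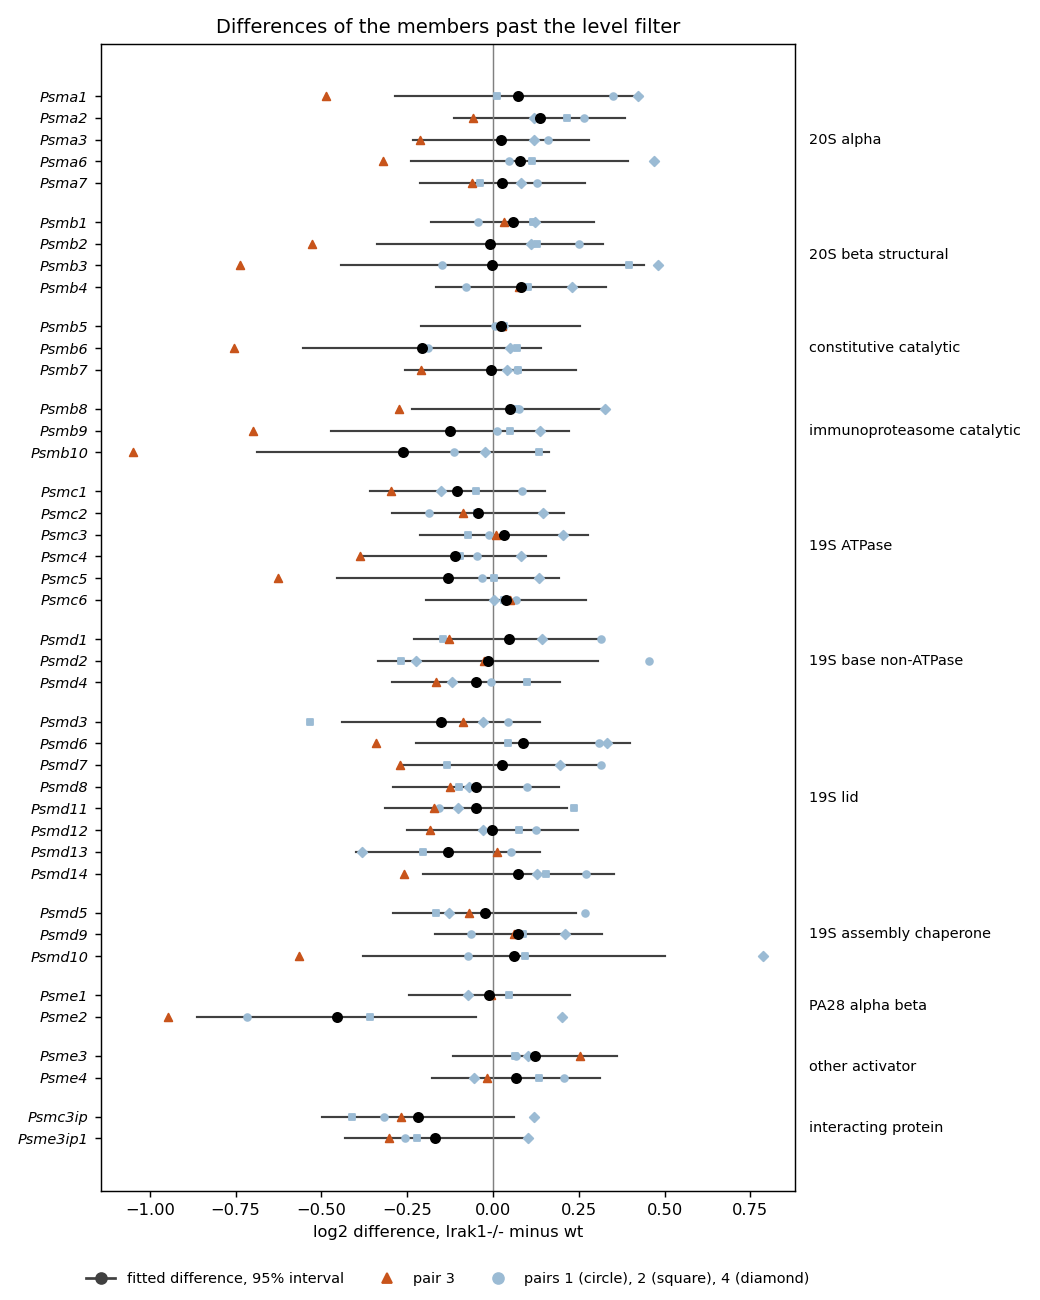
Log2 differences, Irak1-/- minus wt, of the 41 members past the level filter, grouped by role. Black points with bars are the fitted difference and its 95% confidence interval from limma, small symbols are the 4 pairs, and the triangles of pair 3 lie left of 0 for 33 of 41 members.

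The constitutive catalytic subunits differed between the groups by 0.19 or less in pairs 1, 2 and 4. Psmb5, which carries the chymotrypsin-like site, read 10.24, 10.11, 10.06 and 10.06 in the Irak1-/- arrays of pairs 1 to 4, against 10.23, 10.08, 10.03 and 10.03 in the wt arrays. Its difference was 0.02 (SE 0.102, limma adjusted p = 0.982), and within each pair the 2 arrays were at most 0.03 apart. No member had a smaller standard error. Psmb7, the trypsin-like subunit, read 9.47, 9.36, 8.95 and 9.29 in Irak1-/- arrays, against 9.40, 9.28, 9.16 and 9.25 in wt arrays. The groups overlapped, and the difference was -0.0067 (SE 0.109, adjusted p = 0.994). Psmb6, the caspase-like subunit, read 7.88, 7.77, 6.91 and 7.81 in Irak1-/- arrays, against 8.07, 7.70, 7.66 and 7.76 in wt arrays. Here the Irak1-/- array of pair 3 was lower than all other arrays, and the difference of -0.21 (SE 0.152, adjusted p = 0.890) became -0.02 without pair 3.

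As a set, the immunoproteasome subunits had a wider mean gap in pair 3, at -0.67, beside -0.31 for the constitutive set. Psmb9, which takes the place of Psmb6, read 10.54, 10.52, 9.76 and 10.44 in Irak1-/- arrays, against 10.53, 10.47, 10.46 and 10.30 in wt arrays. Its difference was -0.13 (SE 0.152, adjusted p = 0.941), and it turned to 0.07 without pair 3. Psmb10, which takes the place of Psmb7, read 9.43, 9.35, 8.28 and 9.36 in Irak1-/- arrays, against 9.55, 9.21, 9.33 and 9.39 in wt arrays. The fitted difference was -0.26 (SE 0.187, adjusted p = 0.885), and it was -0.0012 without pair 3. Psmb8, which takes the place of Psmb5, read 8.57, 8.56, 8.25 and 8.64 in Irak1-/- arrays, against 8.50, 8.49, 8.52 and 8.31 in wt arrays. That is a difference of 0.05 (SE 0.125, adjusted p = 0.966), higher in 3 of 4 pairs. For each of the 3 genes the lowest of the 8 arrays was the Irak1-/- array of pair 3.

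The balance between the immunoproteasome and constitutive sets was read as a difference of differences, which does not compare the levels of unlike probe sets. The mean change of Psmb8, Psmb9 and Psmb10 less that of Psmb5, Psmb6 and Psmb7 was 0.03, 0.03, -0.36 and 0.11 in pairs 1 to 4, or -0.05 ± 0.211 (SD, n = 4). It was positive in 3 of 4 pairs and averaged 0.05 without pair 3. By site, Psmb9 less Psmb6 averaged 0.08 ± 0.0919, Psmb8 less Psmb5 averaged 0.03 ± 0.247, and Psmb10 less Psmb7 averaged -0.26 ± 0.402 (SD, n = 4 pairs each). In pair 3 the values were 0.06 for Psmb9 less Psmb6, -0.30 for Psmb8 less Psmb5 and -0.84 for Psmb10 less Psmb7. The shift in that pair therefore stood in Psmb10 above all, and the spread between pairs was larger than the mean of the balance.

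**Figure D2:**
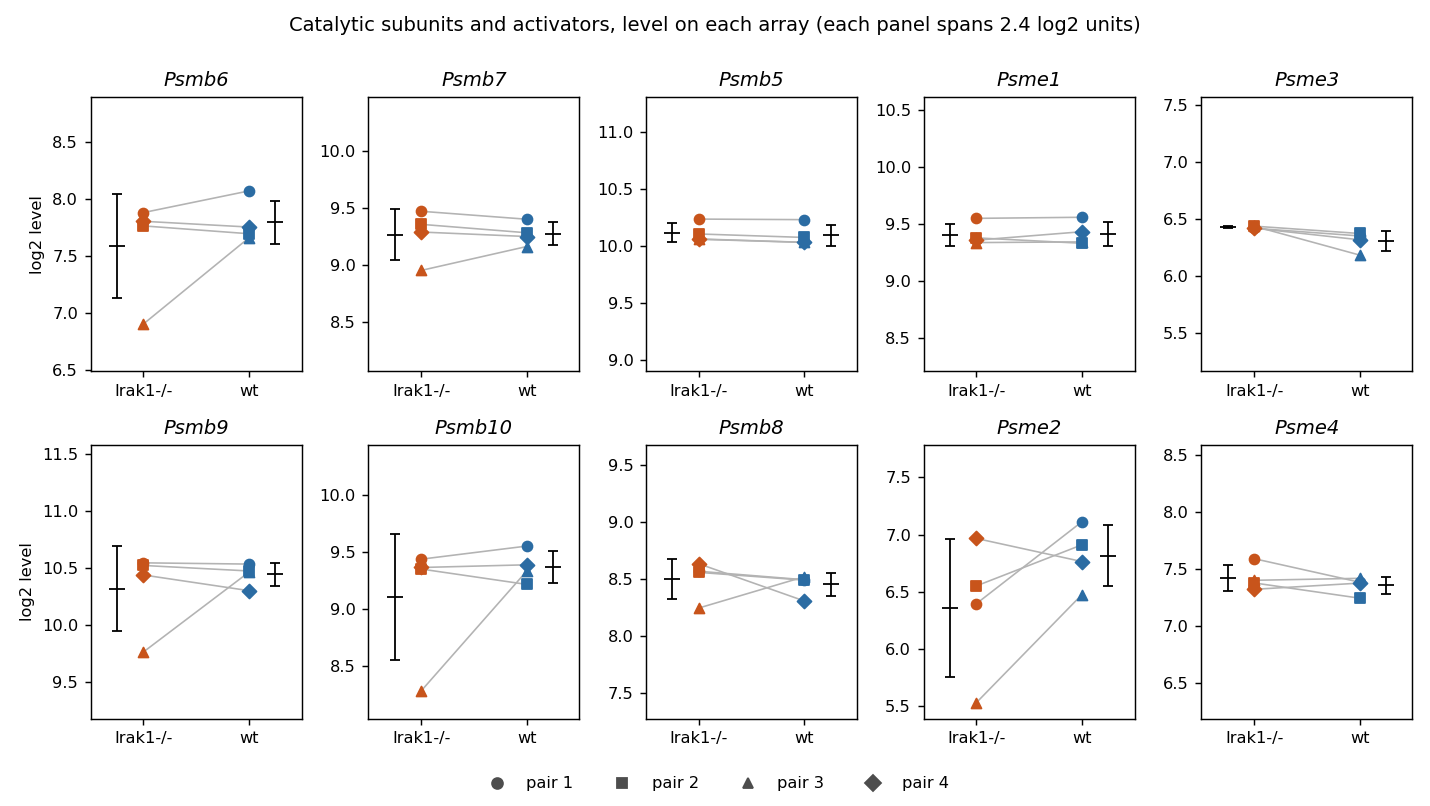
Log2 level of the catalytic subunits and the activators on every array, Irak1-/- at the left and wt at the right of each panel, with grey lines joining the arrays of a pair. Black marks are the mean and SD of 4 arrays; the triangle of the Irak1-/- array of pair 3 lies lowest for Psmb6, Psmb7, Psmb8, Psmb9, Psmb10 and Psme2, while Psmb5 and Psme1 are level.

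Psme2 had the smallest p of all members. Its protein pairs with that of Psme1 in the PA28 ring, which opens the gate of the 20S core. Psme2 read 6.40, 6.55, 5.53 and 6.97 in Irak1-/- arrays, against 7.11, 6.91, 6.47 and 6.76 in wt arrays. It was lower in 3 of 4 pairs and higher in pair 4, and the groups overlapped. The difference was -0.46 (SE 0.179, 95% confidence interval -0.86 to -0.05, limma adjusted p = 0.699), a ratio of 0.729. Without pair 4 it was -0.67, without pair 3 it was -0.29, and without only the Irak1-/- array of that pair, in a fit with no block, it was -0.18. Its unadjusted limma p was no longer under 0.05 in 7 of the 14 alternatives, namely without the block, with a random block, with every probe set, without pair 1, 2 or 3, and without that array. A further probe set, shared by annotation between Psme2 and 2 other genes, gave means of 7.39 in Irak1-/- and 7.38 in wt arrays. Which of these genes it reads is not known, so it cannot check the difference of Psme2.

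Psme1, its partner, read 9.55, 9.38, 9.34 and 9.36 in Irak1-/- arrays, against 9.56, 9.33, 9.34 and 9.43 in wt arrays. The difference was -0.01 (SE 0.103, adjusted p = 0.992), and even in pair 3 it was -0.0061. The mean change of both PA28 genes was -0.36, -0.16, -0.48 and 0.06 in pairs 1 to 4, which Psme2 supplied almost alone. Psme3, the nuclear relative of PA28, read 6.42, 6.44, 6.44 and 6.42 in Irak1-/- arrays, against 6.35, 6.37, 6.18 and 6.32 in wt arrays. It was the single member whose groups did not overlap, and was higher in Irak1-/- in 4 of 4 pairs, where 1.17% of all genes tested were separated in that direction. The difference was 0.12 (SE 0.105, adjusted p = 0.908). Psme4, the PA200 activator of nuclear proteasomes, read 7.59, 7.38, 7.40 and 7.32 in Irak1-/- arrays, against 7.38, 7.24, 7.42 and 7.37 in wt arrays, with a difference of 0.07 (SE 0.108, adjusted p = 0.950).

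Alpha subunits form the outer rings of the core and its gate. All 5 past the filter (Psma1, Psma2, Psma3, Psma6 and Psma7) had positive differences, from 0.02 to 0.14, and adjusted p values from 0.902 to 0.985. Psma2 had the smallest p on the positive side, and read 9.17, 9.14, 8.79 and 9.07 in Irak1-/- arrays, against 8.91, 8.92, 8.85 and 8.95 in wt arrays. In pairs 1, 2 and 4 the Irak1-/- array was the higher, and the difference was 0.14 (SE 0.110, adjusted p = 0.902). In pair 3 all 5 were lower in the Irak1-/- array. The common sign did not hold with fewer pairs: without pair 1 Psma1, Psma3 and Psma7 had -0.02, -0.02 and -0.0059, and without pair 4 Psma1, Psma3 and Psma6 had -0.04, -0.0094 and -0.05. Psma5, an alpha subunit that every 20S core contains, read 3.58 ± 0.448 in Irak1-/- and 3.04 ± 0.695 in wt arrays on its brighter probe set, means under the filter and under every array median (4.25 to 4.31). Psma8, which replaces an alpha subunit in testis, read 2.98 ± 0.421 in Irak1-/- and 2.74 ± 0.160 in wt arrays, likewise under the filter (SD, n = 4 each).

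Of the beta subunits without a proteolytic site, Psmb1, Psmb2, Psmb3 and Psmb4, differences lay between -0.01 and 0.08. Psmb4 read 10.01, 10.01, 9.93 and 10.07 in Irak1-/- arrays, against 10.09, 9.91, 9.85 and 9.84 in wt arrays, a difference of 0.08 (SE 0.108, adjusted p = 0.947). Its groups overlapped through the wt array of pair 1. Psmb3 had the widest standard error among the members, 0.194, with a level of 4.25 on the Irak1-/- array of pair 3 and 5.18 to 5.60 on the other Irak1-/- arrays. Psmb11, the catalytic subunit of the thymic cortex, read 3.45 ± 0.0778 in Irak1-/- and 3.41 ± 0.177 in wt arrays, below the filter. Among the 44 genes, then, those under the filter were the testis and thymus subunits and Psma5.

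All 17 subunits of the 19S regulator among the 44 genes passed the filter. Their group means were 7.26 to 10.91 in Irak1-/- and 7.41 to 10.96 in wt arrays. Any 19S subunit with another kind of name, such as Sem1, is outside this set. The 6 ATPases of the base, Psmc1 to Psmc6, which unfold the substrate, had differences from -0.13 to 0.04. Psmc5 was the lowest of them at -0.13 (SE 0.142, adjusted p = 0.934) and read 8.34 on the Irak1-/- array of pair 3, against 8.97 on the wt array of that pair. Psmd1, Psmd2 and Psmd4, the scaffold proteins and a ubiquitin receptor of the base, had 0.05, -0.02 and -0.05. The 8 lid subunits among the members had differences between -0.15 for Psmd3 and 0.09 for Psmd6. Psmd14, the enzyme that removes ubiquitin chains from the substrate, had 0.07 (SE 0.122, adjusted p = 0.952). Psmd6 read 8.85, 8.60, 8.21 and 8.68 in Irak1-/- arrays, against 8.54, 8.56, 8.55 and 8.35 in wt arrays. Its Irak1-/- values spanned those of wt on both sides, and the difference of 0.09 (SE 0.137, adjusted p = 0.950) stayed within that spread.

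The 19S chaperones Psmd5, Psmd9 and Psmd10 bind the ATPases during assembly and leave the finished particle. Psmd9 read 5.85, 5.87, 5.80 and 5.72 in Irak1-/- arrays, against 5.92, 5.78, 5.73 and 5.51 in wt arrays, a difference of 0.07 (SE 0.107, adjusted p = 0.948). Psmd5 and Psmd10 had -0.02 and 0.06. Psmc3ip, known for its part in meiotic recombination, read 6.29, 5.67, 5.43 and 5.87 in Irak1-/- arrays, against 6.61, 6.08, 5.70 and 5.75 in wt arrays. It was lower in 3 of 4 pairs, with a difference of -0.22 (SE 0.123, adjusted p = 0.818). Psme3ip1, a nuclear partner of the Psme3 protein, read 7.71, 7.65, 7.68 and 7.76 in Irak1-/- arrays, against 7.97, 7.87, 7.99 and 7.66 in wt arrays. Its difference was -0.17 (SE 0.115, adjusted p = 0.871), again with pair 4 as the exception. These genes are not proteasome subunits, yet their p values were the next smallest after that of Psme2.

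Agreement between the pairs was counted as well. Of the 41 members, 3 were higher in Irak1-/- in 4 of 4 pairs (Psmb5, Psmc6 and Psme3), where 5.26% of all genes tested were, and 0 were lower in 4 of 4, where 8.91% of all genes were. Groups without overlap in the lower direction were found for 0 members, where 1.86% of all genes had them. Of the 41, 24 were higher in pair 1, 26 in pair 2, 8 in pair 3 and 29 in pair 4. The median differences of these members were 0.05, 0.04, -0.18 and 0.11 in pairs 1 to 4, against -0.0037, -0.04, -0.06 and 0.0021 over all genes tested.

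The members varied with the array more than with the genotype. As a mean deviation of the 41 members from their own 8-array means, the Irak1-/- arrays of pairs 1 to 4 lay at 0.16, 0.05, -0.30 and 0.04, and the wt arrays at 0.12, 0.05, -0.05 and -0.06. The Irak1-/- array of pair 3 read lowest of all 8 for 26 of 41 members (63.4%) and highest for 0. Over all genes tested it was lowest for 29.4% and highest for 15.8%. Among genes with a mean level of 7 or more it was lowest for 46.6% of 3247 genes and for 23 of 34 members (67.6%). At the other end, the Irak1-/- array of pair 1 read highest for 16 members and the wt array of pair 1 for 13.

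**Figure D3:**
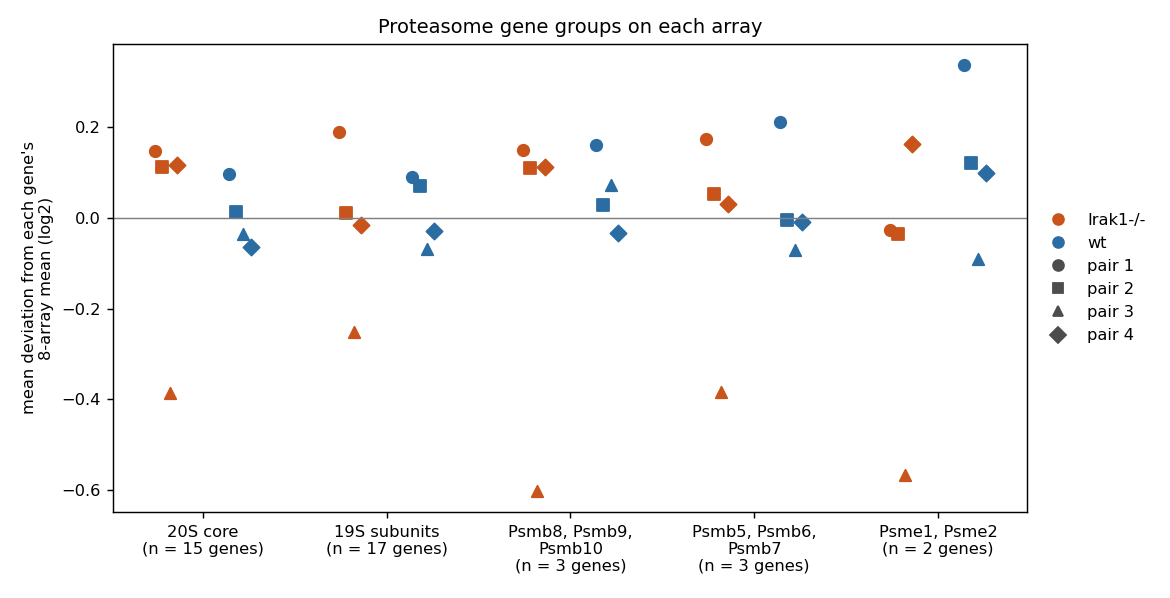
Mean deviation of gene groups from each gene's own mean over 8 arrays, in log2 units, with Irak1-/- arrays at the left and wt arrays at the right of each group. Symbols mark the pairs, and the triangle of the Irak1-/- array of pair 3 lies lowest in all 5 groups, at -0.39 for the 20S core and -0.60 for Psmb8, Psmb9 and Psmb10.

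Within pair 3 the size of the shortfall differed between parts of the particle. The 15 core genes past the filter had a median of -0.27 in that pair, and the 17 genes of the 19S regulator had -0.17. Psmb10 at -1.05, Psme2 at -0.95, Psmb6 at -0.76, Psmb3 at -0.74, Psmb9 at -0.70 and Psmc5 at -0.63 were the lowest, while Psmb1, Psmb4, Psmb5, Psmc3, Psmc6, Psmd9, Psmd13 and Psme3 had positive values there. Only 0.879% of all genes tested were below Psmb10 in pair 3, and 4.09% were below Psmb9. Bright genes as a whole were lower in that pair. Genes with a mean level of 7 to 9 had a median of -0.14 and those of 9 and over had -0.15, beside -0.18 and -0.17 for the 20 and 14 members at these levels. After quantile normalization, which gives each array the same distribution, the medians were -0.06 and -0.08 for all genes of these levels and -0.09 and -0.08 for the members. The 7 members at levels of 5 to 7 lay further from other genes of that level, with a median of -0.27 beside -0.07, and after quantile normalization -0.25 beside -0.05.

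Cell cycle genes varied between the arrays as well. The mean log2 level of 11 such genes was 8.47, 8.10, 7.52 and 7.87 in the Irak1-/- arrays of pairs 1 to 4, against 8.34, 8.44, 8.01 and 7.998 in the wt arrays. The lowest was the Irak1-/- array of pair 3, as for the proteasome genes, and the Irak1-/- array of pair 1 was the highest. In pairs 2 and 4 the mean difference of the cell cycle genes was -0.34 and -0.13, beside -0.0058 and 0.10 for the members. All 11 had negative differences, with a median of -0.19, while the members had 19 positive and 22 negative ones. By limma 0 of the 11 passed the adjusted threshold and 1 had an unadjusted p under 0.05, and Bub1b, Kif20a, Tpx2 and Foxm1 had differences of -0.39, -0.31, -0.26 and -0.25. The part of the cell cycle in the proteasome values was not tested. The myeloid markers on the Irak1-/- arrays of pairs 1 to 4 had mean levels of 5.58, 5.60, 5.88 and 5.96. Of the 14, 7 read highest of all 8 arrays on the Irak1-/- array of pair 3 (Lyz2, Tyrobp, Csf1r, Ctss, Adgre1, Fcgr3 and Cd14) and 5 on that of pair 4. The other 2, Itgam and Itgax, read highest on the wt array of pair 2. Over all genes tested, the Irak1-/- arrays of pairs 3 and 4 read highest for 15.8% and 9.90%. Of the 13 markers past the filter, 1 had a negative difference, -0.59, and was lower in 4 of 4 pairs.

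Genes that act around the proteasome were read from lists, and by limma 0 of their genes passed the adjusted threshold or an unadjusted p under 0.05. The list of 20S assembly chaperones and an inhibitor, with 6 genes, had 3 positive and 3 negative differences with a median of 0.05, among them Psmg1 at 0.14, Psmg2 at -0.13, Pomp at 0.09 and Psmg4 at 0.10. A list of proteasome-associated factors, Sem1 among them, had a median of 0.03 over the 6 genes measured here. Of these Uchl5, a deubiquitinase, had 0.12 and Ecpas, a scaffold that holds proteasome parts together, had -0.12. Ube3c, a ubiquitin ligase of the proteasome, had 0.07 and Akirin2, which carries proteasomes into the nucleus, had 0.04. The 7 ubiquitin shuttle and extraction factors had a median of 0.03, with Rad23b at 0.14, Ufd1 at -0.06, Ubqln4 at 0.06 and Vcp at 0.05. Regulators of proteasome gene transcription had a median of -0.05 over 5 genes. Of them Nfe2l1, whose factor raises proteasome genes when the protease is inhibited, had 0.05, Nfe2l2 had -0.05, Keap1 -0.08 and Ngly1, which activates the Nfe2l1 protein, -0.08.

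The interferon-gamma axis was set beside the immunoproteasome because these genes are its textbook targets. Ifng read 8.59, 8.54, 7.60 and 7.97 in Irak1-/- arrays, against 9.11, 8.65, 8.50 and 8.92 in wt arrays. It was lower in 4 of 4 pairs, although the difference of -0.62 (SE 0.152) did not pass (adjusted p = 0.404). Irf1, a factor that binds the promoters of the inducible genes, and Nlrc5, the activator of MHC class I transcription, were also lower in 4 of 4 pairs, at -0.30 and -0.23 (adjusted p = 0.660 and 0.763). Ifngr2, a receptor chain, had 0.28. The 9 genes of this list had 5 negative and 4 positive differences and a median of -0.05. By limma 0 of them passed the adjusted threshold and 2 had an unadjusted p under 0.05.

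Pair by pair, the inducible genes differed in direction. Psmb9 and Psmb8 were higher in Irak1-/- cells in 3 of 4 pairs, while Psmb10, Psme2 and Psme1 were lower in 3 of 4. In pair 4, where Ifng had its widest gap at -0.95, Psmb9, Psmb8 and Psme2 had 0.14, 0.33 and 0.20. Psmb10 and Psme1 had -0.02 and -0.07 in that pair. In pair 3, where Ifng had its next widest gap, Psmb9, Psmb8 and Psme2 had -0.70, -0.27 and -0.95. Psmb10 and Psme1 had -1.05 and -0.0061 there. The 10 genes of MHC class I processing and presentation had 9 positive differences and a median of 0.05, with Tap2 at 0.13 and Calr at 0.17 (adjusted p = 0.910 for both) and Canx and Pdia3 at 0.08 and 0.09. Tap1, the peptide transporter gene between Psmb9 and Psmb8, had -0.0034 and is named for its position. Whether the changes of Ifng and of its targets differ was not tested.

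**Figure D4:**
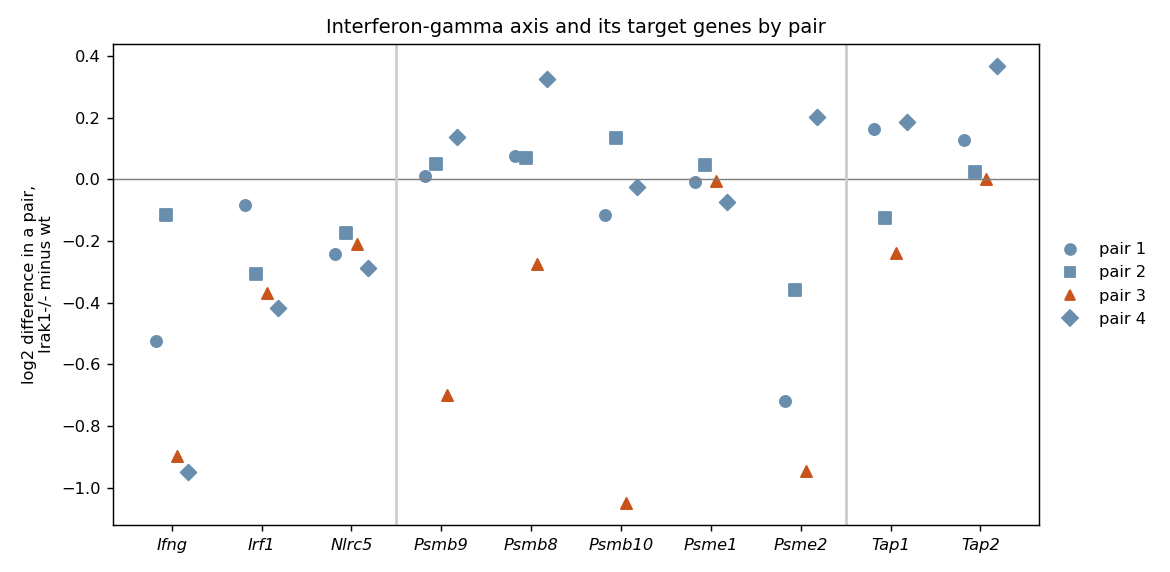
Log2 differences, Irak1-/- minus wt, in each of the 4 pairs for Ifng, Irf1 and Nlrc5 at the left, the inducible proteasome genes in the middle and Tap1 and Tap2 at the right. Ifng, Irf1 and Nlrc5 lie below 0 in all 4 pairs, while Psmb9 and Psmb8 lie above 0 in pairs 1, 2 and 4 and below it in pair 3. Those first 3 are the only genes of the 9 in the interferon-gamma list that were lower in 4 of 4 pairs. The rest of that list is not shown, and the 9 had 5 negative and 4 positive differences.

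For the members, spread narrowed within the Irak1-/- group once pair 3 was set aside, but not within the wt group. Pair 3 was picked because its Irak1-/- array stood apart, so this narrowing follows from the choice and says nothing on the genotype. The median SD of a member was 0.206 over 4 Irak1-/- arrays and 0.116 over 4 wt arrays, and without pair 3 it was 0.0919 and 0.119. Over all genes tested the median SD was 0.191 in Irak1-/- and 0.166 in wt arrays, and 0.149 and 0.158 without pair 3. For the symbols with 2 usable probe sets, the second one of Psmc2 gave a difference of -0.03, beside -0.04 for the one used, and the second of Psma5 gave -0.16, beside 0.53 for the one used. Psma4, read on probe sets it shares with another symbol, had 8.06 in Irak1-/- and 8.17 in wt arrays on the brighter one and 5.73 and 5.48 on the dimmer one.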

How the data were processed

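Per the labels, RNA of the sorted cells was hybridized to Affymetrix arrays. The deposited table holds, for 8 arrays, log2 levels of 41345 probe sets. The sources used here do not say how the authors corrected, summarized and normalized them. Probe sets were named by the platform annotation, with symbols updated by gene identifier; 23521 had 1 symbol, 1814 several, and 16010 were unnamed here. The brightest probe set of each of 22180 genes was kept, and genes with a mean under the 40th percentile (3.90) were left out of testing.

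The test was that of limma 3.58.1, run in R 4.3.3 (lmFit, eBayes, two-sided, Benjamini-Hochberg over 13308 genes), with the batch label as a block because the cells of a batch shared their hosts. Deviations of paired arrays from their group means correlated at 0.0799 to 0.200. Differences are Irak1-/- minus wt.

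The members and lists were chosen with earlier results of these data known. The named genes were the catalytic subunits, the activators, the 5 members with the smallest p in each direction and up to 4 genes of each other list. The fit was tested on simulated data. Median differences were -0.05 for stromal (5 genes), 0.06 for dendritic (4) and -0.01 for B cell markers (3). For NK, ILC and CD8 T cell markers (8 genes) the median was -0.28. Of these lists 0 genes passed limma's adjusted threshold. At an unadjusted p under 0.05 there were 4, all NK, ILC and CD8 markers and all lower in Irak1-/- cells. Of all genes tested, 3.82% were lower at that p. Alternatives left out the block, a pair or an array, made the block random, or changed normalization (quantile, median centring), level filter, probe set rule or eBayes settings.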

Additional observations from a re-analysis of the deposited data

Results flagged for a closer look

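Readings far from the other 3 arrays of their group, by Dixon's test at 95%, were found for 5 members in Irak1-/- and 3 in wt arrays. Chance flags about 1 in 20 groups; among the 41 members the share was 12.2% in Irak1-/- and 7.32% in wt arrays, and among all genes tested it was 6.24% and 5.28%. All 5 of the Irak1-/- readings were the lowest of their group and came from the array of pair 3. On that array Psmb10 read 8.28, against 9.35 to 9.43 on the other Irak1-/- arrays, and Psmb9 read 9.76, against 10.44 to 10.54. Psmb6 read 6.91, against 7.77 to 7.88, Psmc5 read 8.34, against 9.01 to 9.07, and Psma1 read 8.16, against 8.82 to 8.92. Over all genes tested, that array was the distant one of its group for 3.41%.

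In wt arrays, the array of pair 4 read lowest for Psmb8 at 8.31, against 8.49 to 8.52, and for Psmd6 at 8.35, against 8.54 to 8.56. The wt array of pair 2 read highest for Psmd14, at 8.56, against 8.43 to 8.45.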

How the results depend on the processing

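No member was called under any of the 14 alternatives, and the lowest adjusted p of a member was 0.499, for Psme2 without pair 4. Over all genes, limma called 10, 0 with every probe set tested and up to 17 (without pair 1). In the fit with no replicate block, the lowest adjusted p of a member was 0.988, and the differences were those of the fit with pairs. With pairs left out in turn, or the Irak1-/- array of pair 3 in a fit without pairs, the median over members ran from -0.03 to 0.07, the immunoproteasome minus constitutive balance from -0.10 to 0.05 and the PA28 mean from -0.33 to -0.08. Under the same settings the sign turned for Psmb6 (-0.30 to 0.021), Psmb7 (-0.034 to 0.098), Psmb8 (-0.044 to 0.16), Psmb9 (-0.21 to 0.066), Psmb10 (-0.40 to 0.012) and Psme1 (-0.030 to 0.012). Without that array Psmb9 had 0.059; without pair 3 Psmb7 had 0.061; without pair 4 Psme1 had 0.011. Of the 25 other members, 7, 2, 4 and 9 turned without pairs 1 to 4, 9 without that array and 1 under quantile normalization. The cause was not tested. Under quantile normalization and median centring, no gene of the 16 given with every array turned its sign. How far low readings lie above background is not known, which limits Psmb3, Psma5, Psma8 and Psmb11.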
